A study of Mus musculus with 6 samples.

Results

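The mitochondrial genome (mtDNA) of the mouse carries 37 genes, and all 37 were listed among the 53110 genes of a bulk RNA-seq table of neural stem cells (NSCs). They were taken as the rows whose gene name starts with mt-, which gave 13 protein genes, 22 tRNA genes and 2 rRNA genes. In the GENCODE M21 annotation of the mm10 genome, 28 of them lie on the heavy strand and 9 on the light strand. The cells were primary cortical NSCs, taken from the embryonic mouse telencephalon and grown as an adherent layer on Matrigel at 21% O2. Labels gave 3 samples without the mutation (WT) and 3 samples labelled Setd5 +/-, in which CRISPR-Cas9 had disrupted 1 of the 2 copies of Setd5, a gene for a chromatin regulator. Headers of the deposited table traced all Setd5 +/- samples to the same clone. RNA was purified on RNeasy mini columns, which retain little RNA as short as a tRNA, and libraries were made with the TruSeq RNA v2 kit, which selects polyadenylated RNA and does not keep the strand.

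Mammalian mtDNA is a small circle that is transcribed in long units from both strands, almost from end to end. The primary transcripts are cut into single RNAs mainly at the tRNAs, which sit like punctuation between the protein and rRNA genes. Its protein genes encode core subunits of respiratory chain complexes I, III and IV and of the ATP synthase (complex V), while all other subunits, and all proteins that copy, transcribe and process mtDNA, come from the nucleus. The mitochondrial mRNAs carry short poly(A) tails, the rRNAs only a few added A residues, and mature tRNAs none.

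The 3 samples of each genotype differed by no more than the sampling of reads. Over tested genes, the chi-square of read pairs per degree of freedom was 0.974 within WT and 0.961 within Setd5 +/-, against 32.0 between a WT and a Setd5 +/- sample, and the totals of the samples differed by 0.0897% and 0.0397% of their mean. They were therefore counted as parts of 1 library per genotype, so no SD is given, all intervals cover counting error only, and each test compares the reads of 2 libraries. Genotype, clone, culture, index and lane cannot be told apart in such a design. WT samples held 9995980 to 10004948 counted reads and Setd5 +/- samples 7143309 to 7146147. Setd5 itself stood at 2498, 2749 and 2780 normalized counts in WT and at 2151, 1990 and 2055 in Setd5 +/- (log2 fold change −0.37, limma adjusted p = 3.13e-09). All 10 NSC markers were detected, with 4 higher and 5 lower in Setd5 +/-, from Fabp7 (log2 fold change −1.65) to Notch1 (1.61). Markers of other cell types also moved, beside 30.3% higher and 30.9% lower over all genes tested. The 7 neuron markers summed to 383 to 415 normalized counts in WT and to 81.0 to 90.5 in Setd5 +/-, with 3 of 4 tested genes lower, Syt1 most (−3.46), and Neurod1 at 0. Tested genes had a mean of at least 10 normalized counts over the 6 samples. Syt1 and Snap25 reached it through WT alone, with Setd5 +/- means of 5.16 and 5.56. The 7 oligodendrocyte markers summed to 40199 to 41066 and 22248 to 23073, with 4 of 6 tested genes lower, Sox10 most, and 2 higher. Sox10 and Mbp also reached a mean of 10 through WT alone, with Setd5 +/- means of 1.59 and 6.35. The 5 astrocyte markers summed to 6442 to 6603 and 8669 to 8741, with 4 higher, Gfap most (3.91), and Aldh1l1 lower (−1.36). Of the 6 microglia and blood markers, 4 were at 0 in every sample and Csf1r was lower (−0.85), and the 6 mesenchymal markers summed to at most 14.3. Their part in the mtDNA results was not tested, and in bulk RNA fewer cells of a type and less RNA per cell cannot be told apart.

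As a whole, the mtDNA genes took a similar share of both libraries. Of all counted reads they held 3.77%, 3.78% and 3.78% in WT, and in Setd5 +/- 3.91%, 3.88% and 3.89%. Over the whole library the share was 3.78% in WT (95% Wilson interval 3.77 to 3.79) and 3.89% in Setd5 +/- (3.88 to 3.90), so the Setd5 +/- library lay slightly above WT by more than counting error. Nearly all of these reads fell on the protein genes, which held 96.3% of the mtDNA reads in WT and 98.9% in Setd5 +/-. The rRNA genes held 3.26% and 0.663%, and the tRNA genes 0.463% and 0.443%.

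Of the 37 members, 25 averaged 10 normalized counts or more and entered limma's test, on log2(normalized count + 1) and with Benjamini-Hochberg adjustment over all 16266 genes that passed this filter. Of these, 14 passed an adjusted p of 0.05 and are named called here, 6 higher and 8 lower in Setd5 +/-. That is 56.0% of the members tested. Over all genes 61.3% were called, 30.3% higher and 30.9% lower, so the members were called about as often as the rest of the transcriptome. With a log2 fold change of at least 0.5 also asked for, 7 members (28.0%) were left, against 37.7% of all genes (20.4% higher, 17.3% lower). The samples of the genotypes did not overlap in 16 of the 25 members (64.0%) and in 65.3% of all genes. The median log2 fold change was −0.0041 over the members and −0.019 over all genes tested. By class of RNA, differences were small among the protein genes, between −0.20 and 0.30 on the log2 scale, were below −2 in both rRNAs, and ran from −2.63 to 2.20 among the tRNA genes.

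**Figure D1:**
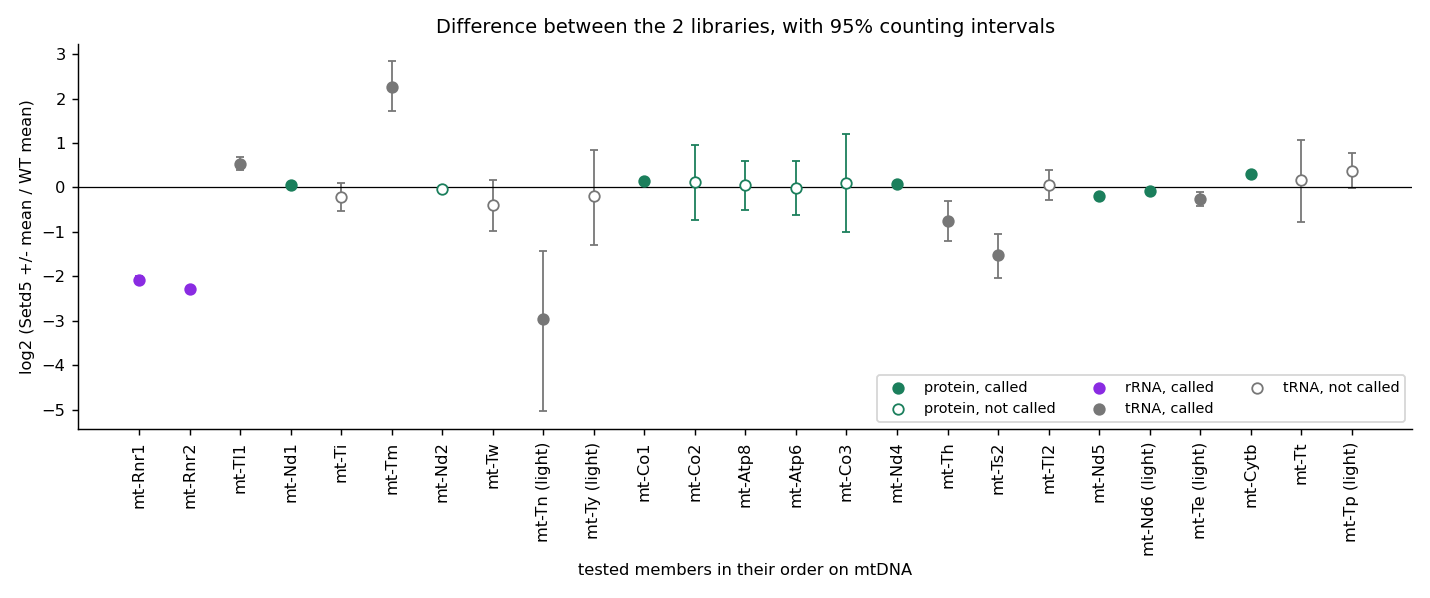
Log2 ratio of the Setd5 +/- mean to the WT mean for the 25 tested mtDNA genes in their order on mtDNA, with bars for 95% counting intervals; filled points passed an adjusted p of 0.05 in limma, and "light" marks genes of the light strand. Both rRNAs lie below −2, the protein genes called lie between −0.20 and 0.30, and the tRNA genes mt-Tm and mt-Tn lie farthest from 0 on either side.

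Levels differed widely among the members. Per kilobase of gene, mt-Co1, the catalytic subunit of complex IV, stood highest, with a mean of 78287 normalized counts per kilobase over the 6 samples, followed by mt-Cytb, the mtDNA-encoded subunit of complex III, at 73384 and by the complex I subunit mt-Nd1 at 34372. The complex I subunits mt-Nd2, mt-Nd5, mt-Nd6 and mt-Nd4 came next, at 19603, 17005, 15027 and 12610 per kilobase. These 7 genes filled the first 7 places in the order. The tRNA genes mt-Te and mt-Tl1 followed at 6519 and 5942 per kilobase and stood above both rRNAs, mt-Rnr2 at 2548 and mt-Rnr1 at 2262 per kilobase. At the other end, mt-Td, mt-Tg and mt-Tr had no reads in any sample, mt-Tk and mt-Ts1 had 1 read each, and mt-Nd3 had 2 reads in each library. A count of 0 still allows up to 3 reads per library.

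Low values were found in tRNA genes around the circle, and in protein genes within 1 block. Between mt-Co1 and mt-Nd4, all 11 genes from mt-Ts1 to mt-Nd4l had a mean of at most 37.1 normalized counts, while their neighbours mt-Co1 and mt-Nd4 had means of 120953 and 17376. The block holds 6 protein genes, at 1.93 to 182 normalized counts per kilobase, against 12610 to 78287 per kilobase in the other 7. They are the complex IV subunits mt-Co2 and mt-Co3, the ATP synthase subunits mt-Atp8 and mt-Atp6, and the complex I subunits mt-Nd3 and mt-Nd4l. Their levels did not differ detectably between the libraries. The samples read 12.4, 12.4 and 23.2 normalized counts in WT and 15.5, 10.7 and 26.2 in Setd5 +/- for mt-Co2. For mt-Atp8 they read 43.1, 33.1 and 33.1 in WT and 52.4, 28.6 and 32.2 in Setd5 +/-. For mt-Atp6 they read 37.3, 36.4 and 22.4 in WT and 39.3, 23.8 and 32.2 in Setd5 +/-, and for mt-Co3 15.8, 7.45 and 6.63 in WT and 11.9, 14.3 and 5.96 in Setd5 +/-. The genotypes overlapped in each of these 4 genes, and at this depth the counting intervals still allow log2 differences from −0.73 to 0.96 for mt-Co2 and from −0.51 to 0.60 for mt-Atp8. mt-Nd4l, below the filter, stood at 9.95, 7.45 and 7.45 in WT and at 2.38, 3.57 and 4.76 in Setd5 +/-. Those samples did not overlap, but the interval of its log2 ratio ran from −3.10 to 0.35.

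**Figure D2:**
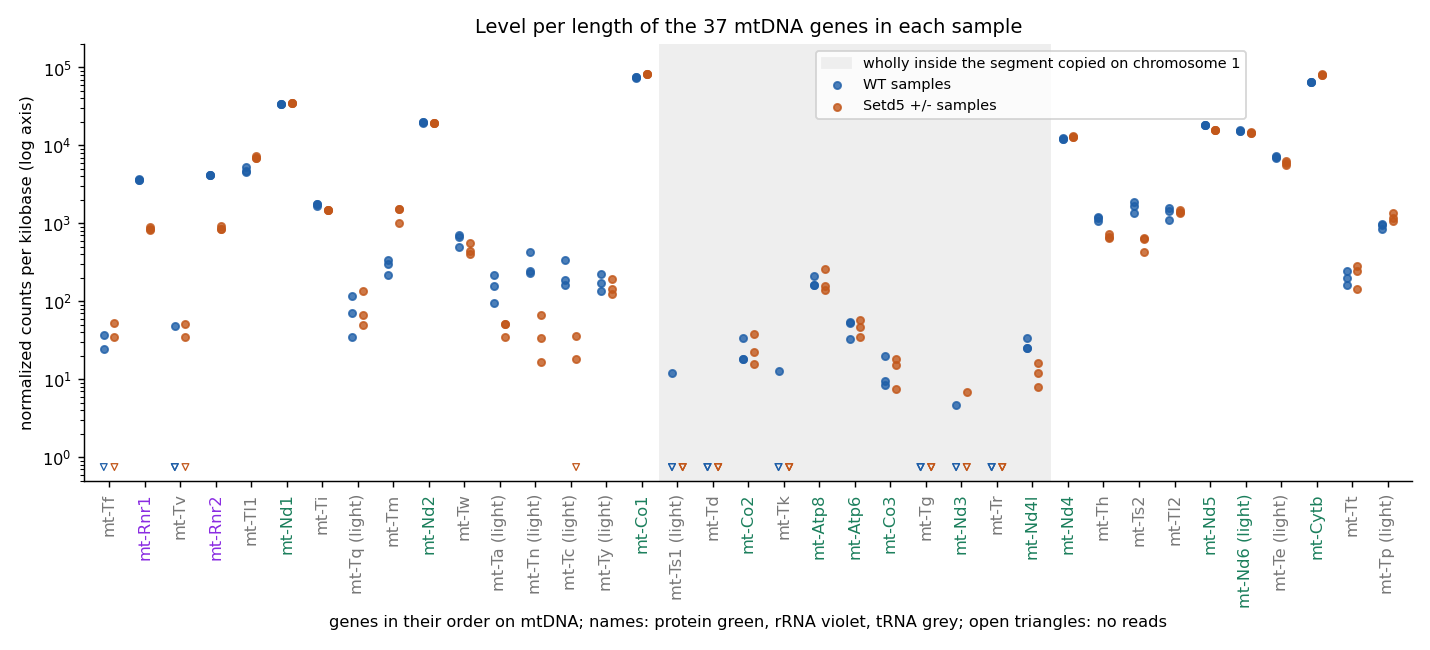
Normalized counts per kilobase (log axis) of the 37 mtDNA genes in each of the 6 samples, in gene order; open triangles mark samples with no reads and the shaded band marks the 11 genes that lie wholly inside the stretch also found on nuclear chromosome 1. The highest gene in the band, mt-Atp8, has a mean of 182 per kilobase, while mt-Nd4 and mt-Co1 on either side have means of 12610 and 78287.

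The block lies in a stretch of mtDNA that has a nearly identical copy in the nuclear genome. Each mtDNA gene was matched to all annotated transcripts of other chromosomes with blastn. On chromosome 1, 7 annotated pseudogenes on the minus strand (chr1:24611535-24616197, mm10) matched parts of mt-Co1 and mt-Nd4 and nearly the whole of mt-Co2, mt-Atp6, mt-Co3, mt-Nd3 and mt-Nd4l, with identities of 99.7% to 100%. They followed each other in the same order as on mtDNA, and the offset between both sets of positions changed by just 1 base over the whole stretch, chrM:6390-11042. All 11 genes of the block lie wholly inside that stretch, and mt-Co1 and mt-Nd4 lie partly inside it. mt-Atp8 belongs to the stretch by its position. Of it, these 7 pseudogenes carry only the last 43 bases, which also begin mt-Atp6 and lie in Gm10925. The nuclear sequence beside the rest of mt-Atp8 was not compared here. The first 120 bases of mt-Co2 (chrM:7013-7132) are shown with 2 nuclear copies, Gm28661 (chr1:24615446-24615565, minus strand) and Gm13341 (chr2:22587843-22587962, minus strand), because they show how little a read could tell them apart. Capitals mark bases that differ from mtDNA.
mt-Co2: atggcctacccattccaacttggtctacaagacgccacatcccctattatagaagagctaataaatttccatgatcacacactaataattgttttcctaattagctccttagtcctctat
Gm28661: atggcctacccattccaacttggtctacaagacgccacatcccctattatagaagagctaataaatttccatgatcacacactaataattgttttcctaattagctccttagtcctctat
Gm13341: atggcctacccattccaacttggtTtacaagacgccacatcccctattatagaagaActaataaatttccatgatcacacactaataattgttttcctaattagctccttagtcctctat

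Gm28661 has no difference in this window and Gm13341 has 2. A less similar copy is Gm11410 (chr4:80003990-80004109, plus strand) beside mt-Cytb (chrM:14146-14265). It differs at 7 of the 120 bases.
mt-Cytb: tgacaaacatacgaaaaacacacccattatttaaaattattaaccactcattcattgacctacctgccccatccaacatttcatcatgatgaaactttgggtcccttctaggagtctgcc
Gm11410: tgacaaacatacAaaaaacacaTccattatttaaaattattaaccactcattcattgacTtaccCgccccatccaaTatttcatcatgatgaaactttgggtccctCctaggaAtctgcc

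The sequence shared with annotated nuclear transcripts was also counted in exact words of 50 bases. In mt-Co2, mt-Atp6, mt-Co3, mt-Nd3 and mt-Nd4l, between 98.0% and 100% of the words also occurred in a nuclear transcript, and these genes stood at 1.93 to 46.8 normalized counts per kilobase. The share was 62.2% in mt-Nd4 and 51.1% in mt-Co1, at most 8.19% in mt-Nd2, mt-Nd5 and mt-Rnr2, and 0% in mt-Nd1, mt-Nd6, mt-Cytb, mt-Rnr1 and mt-Atp8. The 5 tRNA genes of the block, mt-Ts1, mt-Td, mt-Tk, mt-Tg and mt-Tr, shared 0% of their words as well. With mt-Atp8, 6 of the 11 low genes of the block thus shared no word with an annotated nuclear transcript. None of these 6 lies whole in an annotated pseudogene of the stretch, and nuclear sequence outside annotated transcripts was not searched. Their 0% therefore cannot tell whether the nuclear stretch also carries them. The mt-Co1 copy on chromosome 2, Gm13340, covers the whole gene at 97.6% identity, and mt-Co1, with 51.1% of its words shared, is the highest member.

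**Figure D3:**
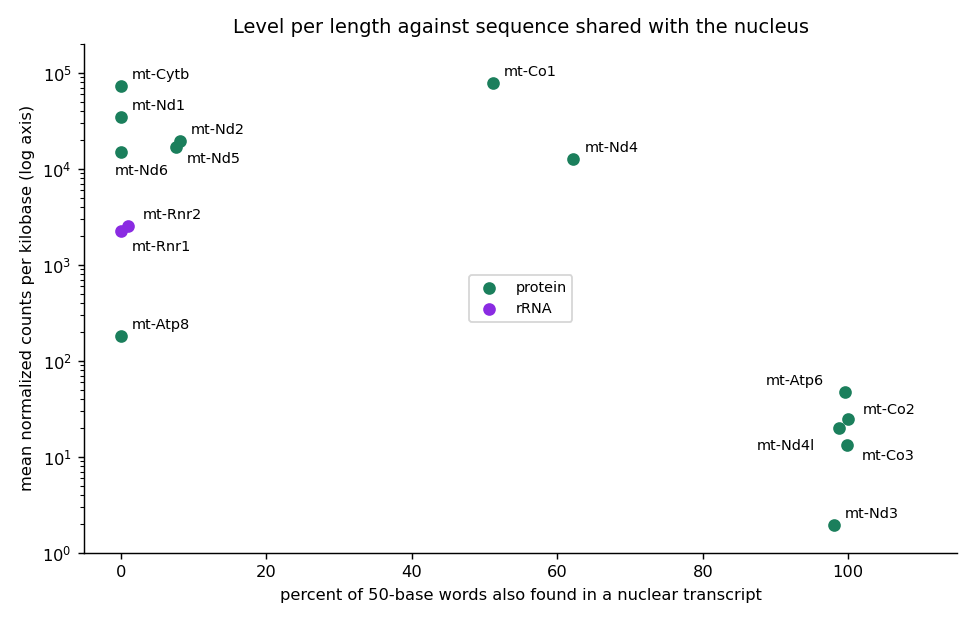
Mean normalized counts per kilobase over the 6 samples (log axis) against the percent of 50-base words that also occur in a nuclear transcript, for the 13 protein and 2 rRNA genes. The 5 genes at 98.0% or more lie at or below 46.8 per kilobase, and mt-Atp8 lies low at 0%. Only annotated nuclear transcripts were searched.

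The copies themselves had few reads. The protein-coding gene Cep295 on chromosome 9 also matched, at 93.5% identity over 82.7% of mt-Tl1 and 91.5% over all of mt-Tn, and was kept apart as a protein-coding gene. It had means of 423 normalized counts in WT and 551 in Setd5 +/- and was called higher (log2 fold change 0.38, limma adjusted p = 0.000119), and its part in the values of mt-Tl1 and mt-Tn was not tested. Without Cep295, the 16 annotated nuclear copies with at least 90% identity together held 642 normalized counts in WT and 684 in Setd5 +/-, and the highest, Gm29216 (99.8% identical to part of mt-Co1), had a mean of 142. The other copies with a mean of at least 10 were Gm11512 (139), Gm11410 (98.2), Gm13341 (81.8), Gm13340 (80.4), Gm28439 (19.5), Gm4076 (17.2), Gm10925 (15.4), Gm28437 (14.4), Gm11407 (12.9), Gm13339 (12.0) and Gm11408 (11.8), in normalized counts. Cep295 aside, none of the 12 tested copies passed limma's threshold and none had an unadjusted p under 0.05. How the authors treated reads that align to several places is not given in the sources used here, so the values of the block are not taken as the level of its RNAs, and the part of shared sequence in them was not tested. Of 16 genes listed by name as possible copies, 6 matched no mtDNA gene at 90% identity in the 1 best match kept per pair of genes, and are not treated as copies. Among these was Lars2, the mitochondrial leucyl-tRNA synthetase. It read 14056, 13980 and 13923 normalized counts in WT and 6848, 6845 and 6745 in Setd5 +/-. Its log2 fold change was −1.04 (limma adjusted p = 1.07e-27). A shorter, closer match than the 1 kept could have been missed. mt-Rnr2 shared 1.04% of its exact words with a nuclear transcript that is not identified here. Whether reads of mt-Rnr2 were counted on Lars2 was not tested. The fall is therefore not taken as that of the Lars2 mRNA alone. Gm8730, also among the 6, rose by 0.24 on the log2 scale.

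Among the 7 protein genes outside the block, 4 were higher and 2 lower in Setd5 +/-, all by small amounts. Over all genes tested 61.3% were called, 30.3% higher and 30.9% lower. The largest rise was in mt-Cytb of complex III. It read 75169, 74961 and 75232 normalized counts in WT and 93397, 92496 and 92449 in Setd5 +/-, which is 1.24-fold higher (log2 fold change 0.30, SE 0.0059, limma adjusted p = 2.50e-25). mt-Co1 of complex IV read 115313, 114667 and 115835 in WT and 126907, 125932 and 127062 in Setd5 +/- (0.14, SE 0.0052, adjusted p = 1.67e-18). As a share of the mtDNA reads, mt-Cytb took 24.0% in each WT sample and 27.9% to 28.1% in the Setd5 +/- samples.

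The complex I genes moved in both directions. mt-Nd5 fell from 33201, 33198 and 33065 normalized counts in WT to 28769, 29022 and 28847 in Setd5 +/- (log2 fold change −0.20, SE 0.0091, limma adjusted p = 8.72e-17). mt-Nd6, the sole protein gene of the light strand, was at 7852, 8104 and 8025 in WT and 7771, 7483 and 7558 in Setd5 +/- (−0.072, SE 0.019, adjusted p = 0.00202). mt-Nd1 was at 32294, 32052 and 32114 in WT and 33799, 33519 and 33589 in Setd5 +/- (0.065, SE 0.0089, adjusted p = 4.37e-07). mt-Nd4 was at 17067, 16870 and 16763 in WT and 18088, 17652 and 17816 in Setd5 +/- (0.079, SE 0.013, adjusted p = 6.05e-06). The genotypes did not overlap in any of these 4, nor in 65.3% of all genes tested. mt-Nd2 did overlap, at 20210, 20760 and 20591 against 20212, 20427 and 19887 (−0.024, adjusted p = 0.0961). With scaling to the total of nuclear genes mt-Nd2 was called lower as well (−0.062, adjusted p = 0.000123), and the log2 fold changes were 0.028 for mt-Nd1 (adjusted p = 0.0075), 0.041 for mt-Nd4 (adjusted p = 0.00559) and −0.11 for mt-Nd6 (adjusted p = 1.71e-05).

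Summed by complex, the mtDNA subunits of complex I were at 97.7% of WT in Setd5 +/- (log2 ratio −0.034, 95% counting interval −0.044 to −0.024). Complex III was at 124% (0.30, interval 0.29 to 0.32) and complex IV at 110% (0.14, interval 0.13 to 0.14). The value of complex III is that of mt-Cytb alone. That of complex IV is in effect that of mt-Co1, since mt-Co2 and mt-Co3 are in the low block and add almost nothing to the sum. In complex I, mt-Nd3 and mt-Nd4l are in the low block as well. These sums therefore describe only the genes outside the block and are not levels of whole complexes. Over all 13 protein genes the sum was at 109% of WT (0.12, interval 0.12 to 0.13). Complex V cannot be judged, since both of its genes are in the low block. The median log2 fold change of the 11 tested protein genes was 0.065, a value that turned to −0.016 without WT sample 2 and to −0.022 without WT sample 3.

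The 2 rRNAs, which form the RNA core of the mitochondrial ribosome, showed the greatest difference among the abundant members. mt-Rnr1, the small subunit rRNA (chrM:70-1024), read 3581, 3489 and 3420 normalized counts in WT and 865, 816 and 792 in Setd5 +/-. This is 4.24-fold lower (log2 fold change −2.08, SE 0.040, limma adjusted p = 1.67e-25). mt-Rnr2, the large subunit rRNA (chrM:1094-2675), read 6686, 6679 and 6697 in WT and 1447, 1331 and 1341 in Setd5 +/-, 4.87-fold lower (−2.28, SE 0.031, adjusted p = 7.79e-29). Every Setd5 +/- sample lay far under every WT sample. Both genes moved nearly together, with 1.91 reads of mt-Rnr2 per read of mt-Rnr1 in WT and 1.67 in Setd5 +/-, a log2 difference of −0.20 (interval −0.32 to −0.082). Per 1000 reads of mtDNA protein genes WT held 34.1, 33.8 and 33.5 rRNA reads, whereas Setd5 +/- held 7.03, 6.57 and 6.52. In all 16266 genes tested, 317 had a log2 fold change of −2 or less.

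The next genes along the same strand did not share this fall. mt-Tl1, the tRNA for leucine (UUR codons) that directly follows mt-Rnr2, was higher in Setd5 +/-, at 399, 343 and 349 normalized counts in WT and 518, 520 and 544 in Setd5 +/- (log2 fold change 0.54, SE 0.077, limma adjusted p = 7.66e-07). Next to it, mt-Nd1 differed by just 0.065. The ratio of mt-Tl1 to mt-Rnr2 reads went from 0.0544 to 0.384, a log2 difference of 2.82 (interval 2.65 to 2.99). The tRNAs before and between the rRNAs, mt-Tf and mt-Tv, held 4 to 5 reads per library and allow no comparison.

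Nuclear RNAs that lack a poly(A) tail moved with the rRNAs. Of 10 such RNAs in a list, 5 were tested and all 5 were lower in Setd5 +/-, against 30.9% of all genes tested. Their median log2 fold change was −3.61, against −0.019 over all genes. Rn7sk and Rpph1 passed the filter through WT alone, with Setd5 +/- means of 9.53 and 1.59, and Rpph1 gave the median. Gm42418, a locus that overlaps a nuclear rRNA gene, read 47264, 46870 and 46933 normalized counts in WT and 3702, 3730 and 3777 in Setd5 +/- (12.6-fold lower). Gm26917 read 2035, 2134 and 2066 against 726, 661 and 668. Rn7sk, the 7SK RNA that restrains the elongation factor P-TEFb, read 126, 132 and 134 against 9.53, 7.15 and 11.9. Rmrp, the RNA of RNase MRP, read 61.4, 84.4 and 54.7 against 7.15, 16.7 and 7.15. Rpph1, the RNA of nuclear RNase P, read 24.9, 26.5 and 28.2 against 2.38, 0 and 2.38. The genotypes did not overlap in any of the 5, nor in 65.3% of all genes tested. Summed over the 10 RNAs, the list stood at 49218 to 49512 in WT and, in Setd5 +/-, at 4417 to 4471, with Rn7s1 and Rn7s2 at 0 throughout. The part of poly(A) selection in the rRNA values was not tested.

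**Figure D4:**
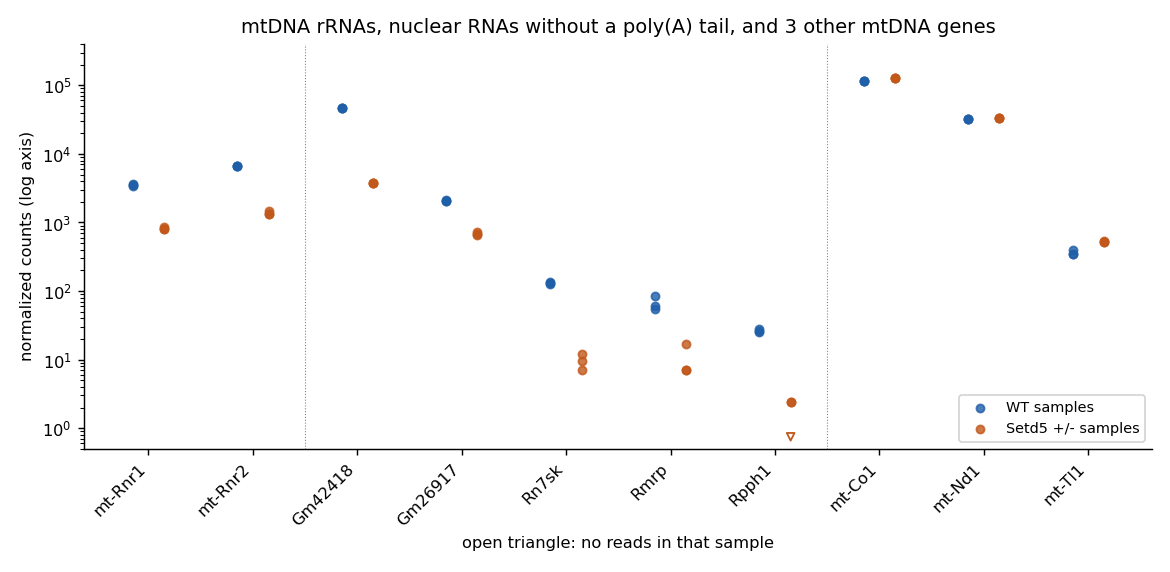
Normalized counts (log axis) per sample of the 2 mtDNA rRNAs, of the 5 tested nuclear RNAs without a poly(A) tail, and of mt-Co1, mt-Nd1 and mt-Tl1 for comparison; the open triangle is a sample with no reads. All 3 Setd5 +/- points lie below all 3 WT points in the first 7 genes, and above them in the last 3.

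Of the 22 tRNA genes, 12 were tested, 2 of them were called higher and 4 lower, beside 30.3% and 30.9% of all genes tested. A read counted on a tRNA gene need not come from a mature tRNA, since it can also come from an uncut transcript or reach in from a neighbouring gene. To show what was counted, 5 of the 6 called tRNA genes, and mt-Tc and mt-Ta beside mt-Tn, are given here 5′ to 3′ as GENCODE has them, with the anticodon in capitals. It was found by a script as the middle of a loop of 7 bases closed by a stem of 5 positions, at least 4 of them paired. The remaining called gene, mt-Ts2, is not shown.
mt-Tm: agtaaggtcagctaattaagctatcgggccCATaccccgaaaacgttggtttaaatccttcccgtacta
mt-Tl1: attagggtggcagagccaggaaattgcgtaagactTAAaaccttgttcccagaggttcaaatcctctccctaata
mt-Tn: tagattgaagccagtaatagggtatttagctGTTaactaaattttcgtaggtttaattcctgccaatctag
mt-Tc: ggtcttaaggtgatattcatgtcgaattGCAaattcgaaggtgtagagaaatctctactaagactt
mt-Ta: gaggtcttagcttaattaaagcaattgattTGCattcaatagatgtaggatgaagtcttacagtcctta
mt-Th: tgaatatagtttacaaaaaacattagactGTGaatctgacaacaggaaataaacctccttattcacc
mt-Te: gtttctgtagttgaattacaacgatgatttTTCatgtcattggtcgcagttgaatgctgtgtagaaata

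The strongest rise of any member was in mt-Tm, the tRNA for methionine (chrM:3845-3913), which lies directly before mt-Nd2. It read 20.7, 14.9 and 23.2 normalized counts in WT and 106, 106 and 69.1 in Setd5 +/-, 4.78-fold higher (log2 fold change 2.20, SE 0.25, limma adjusted p = 1.60e-08). In all genes tested, 490 had a log2 fold change of 2 or more. mt-Nd2, its neighbour on the same strand, differed by −0.024. The 95% counting interval of the mt-Tm ratio ran from 1.71 to 2.83.

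Falls were found in genes annotated on both strands. mt-Ts2, a tRNA for serine (AGY codons), read 80.4, 97.6 and 110 normalized counts in WT and 36.9, 25.0 and 38.1 in Setd5 +/- (log2 fold change −1.51, SE 0.22, limma adjusted p = 8.96e-07). mt-Th, the tRNA for histidine just before it, read 77.9, 71.1 and 81.2 against 42.9, 45.3 and 48.8 (−0.74, SE 0.19, adjusted p = 0.00185). mt-Tl2, a tRNA for leucine (CUN codons) that overlaps the end of mt-Ts2 by 1 base, did not pass, at 77.9, 101 and 111 against 105, 100 and 96.5 (0.070, adjusted p = 0.729). These 3 tRNA genes form a row between mt-Nd4 and mt-Nd5, so neighbours in a row did not share one value.

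A second row of tRNA genes lies on the light strand between mt-Nd2 and mt-Co1, around the origin of light strand replication. There mt-Tn, the tRNA for asparagine, read 16.6, 30.6 and 17.4 normalized counts in WT and 4.77, 1.19 and 2.38 in Setd5 +/- (log2 fold change −2.63, SE 0.51, limma adjusted p = 6.98e-05). It rests on 78 reads in WT and 7 in Setd5 +/-, and the interval of its log2 ratio ran from −5.03 to −1.42. It passed the filter through WT alone, with means of 21.5 in WT and 2.78 in Setd5 +/-. mt-Tc (cysteine) and mt-Ta (alanine), both just under the filter, were at 12.4, 22.3 and 10.8 against 1.19, 0 and 2.38, and at 6.63, 14.9 and 10.8 against 3.58, 2.38 and 3.57. Their log2 ratios were −3.67 (interval −7.45 to −1.47, with 3 reads in Setd5 +/-) and −1.76 (interval −3.74 to −0.20). The WT and Setd5 +/- samples did not overlap in any of the 3, nor in 65.3% of all genes tested. The fourth gene of the row, mt-Ty (tyrosine), read 11.6, 14.9 and 9.11 against 8.34, 13.1 and 9.53 (−0.18, adjusted p = 0.732).

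Of the other tRNA genes, mt-Te (glutamate), on the light strand next to mt-Nd6, was lower, at 485, 481 and 505 normalized counts in WT and 436, 382 and 409 in Setd5 +/- (log2 fold change −0.26, SE 0.074, limma adjusted p = 0.00315). The other 4 tested did not pass. mt-Ti (isoleucine) had means of 119 in WT and 103 in Setd5 +/-, and its samples did not overlap (adjusted p = 0.210). mt-Tw (tryptophan) had means of 42.0 and 31.8 (adjusted p = 0.194), mt-Tp (proline) 62.1 and 80.6 (adjusted p = 0.0844), and mt-Tt (threonine) 13.5 and 15.1 (adjusted p = 0.819). Of these 4, the samples of mt-Tp did not overlap either, while those of mt-Tw and mt-Tt did. Over all genes tested, 65.3% had no overlap. The 12 members below the filter had means of 0 to 8.19 normalized counts, with mt-Tc, mt-Ta and mt-Nd4l the highest. The sum over all 22 tRNA genes did not differ, at 101% of WT (log2 ratio 0.020, interval −0.066 to 0.11).

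The strands differed in size and in the direction of their summed change. The heavy strand held 97.2% of the mtDNA reads in WT and 97.6% in Setd5 +/-. Its summed level was higher in Setd5 +/- by 0.087 on the log2 scale (interval 0.082 to 0.093), or by 0.13 without the rRNAs (interval 0.12 to 0.13). The 9 light strand genes, mt-Nd6 and 8 tRNA genes, summed to −0.085 (interval −0.12 to −0.050), and the light strand stood −0.17 below the heavy strand in the change. Among tested genes, 6 of 20 on the heavy strand were higher and 5 lower, and on the light strand 0 of 5 were higher and 3 lower. Over all genes the shares were 30.3% and 30.9%, and whether the strands differ in these counts was not tested. In WT the light strand held 2.75% of the mtDNA reads, and mt-Nd6 alone 2.56%. Beside mt-Nd5, whose end it overlaps on the other strand, it read 237, 244 and 243 per 1000 mt-Nd5 reads in WT and 270, 258 and 262 in Setd5 +/-, so within this pair the light strand gene rose relative to its partner (log2 difference 0.13, interval 0.086 to 0.17). The strands are groups of genes by annotation. Since the kit did not keep the strand, reads of the 9 light strand genes and of RNA opposite to them cannot be told apart. The same holds where genes of 1 strand overlap, as at the end of mt-Atp8, of which the last 43 bases, in capitals, also begin mt-Atp6 (chrM:7766-7969).
mt-Atp8: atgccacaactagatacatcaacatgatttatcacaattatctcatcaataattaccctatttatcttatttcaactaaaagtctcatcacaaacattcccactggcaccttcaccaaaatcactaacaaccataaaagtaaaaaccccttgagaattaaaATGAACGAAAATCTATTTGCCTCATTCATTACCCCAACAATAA

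The nuclear genes that work on mtDNA moved in both directions. Over all genes tested, 30.3% were higher and 30.9% lower, and whether these lists differ from that was not tested. Of 11 measured genes for mtDNA transcription, 3 were higher and 2 lower, with a median log2 fold change of 0.36. Polrmt, the mitochondrial RNA polymerase, was at 323, 360 and 350 normalized counts in WT and 414, 492 and 422 in Setd5 +/- (0.36, limma adjusted p = 0.000573). Tfam, which packages mtDNA and starts its transcription, was at 347, 340 and 378 against 268, 229 and 279 (−0.46, adjusted p = 0.000127). Both were named after their values were seen. The largest rise of this list was in Mterf4 (1.08), needed for assembly of the mitochondrial ribosome, and the largest fall in Mrpl12 (−0.92), a ribosomal protein. Of 11 genes for mtDNA replication 1 was higher and 6 lower (median −0.30), with Polg, the mtDNA polymerase, at 4019, 4040 and 3882 against 1890, 1948 and 1955 (−1.04, adjusted p = 2.12e-21) and the primase-polymerase Primpol higher, with means of 91.7 and 199. Of 33 genes for mitochondrial RNA processing and stability 3 were higher and 15 lower (median −0.15). The rRNA methyltransferase Mrm3 fell most (−1.15) and the RNA-binding protein Fastkd2 rose most (0.60).

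Most tested nuclear subunits of the same complexes were called lower, beside 30.9% lower and 30.3% higher over all genes tested. In complex I, 3 of 36 tested nuclear genes were higher and 25 lower (median log2 fold change −0.47), and Ndufa5 fell most (−1.04). In complex III, 0 of 9 were higher and 8 lower (median −0.77), and Uqcr11 fell most (−1.73). In complex IV, 1 of 14 was higher and 12 lower (median −0.69), from Cox6b2 (−3.17) to Cox6a2 (4.38), tissue-specific forms of complex IV subunits. Cox6a2, the 1 higher gene, passed the filter through Setd5 +/- alone, with means of 2.21 in WT and 64.3 in Setd5 +/-. In complex V, 0 of 17 were higher and 13 lower (median −0.63), and Atp5g3 fell most (−1.18). The medians of the mtDNA subunits tested were −0.024 in complex I, 0.30 in complex III (1 gene), 0.12 in complex IV and 0.0030 in complex V, the last 2 resting mostly on genes of the low block.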

How the data were processed

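RNA-seq was measured in 6 samples, 3 of each genotype. Per the labels and the methods of the study, the authors trimmed reads with Trimmomatic, aligned them with Bowtie2 to mm10 and ran DESeq2 (versions not given in the sources used here). The deposited table holds normalized counts, which are read counts divided by a size factor per sample, and the authors' own fold changes and p-values, which were not used. The program that counted reads, and its treatment of strand and of multiply aligned reads, are not given in the sources used here. All 6 columns of values were used. The headers name the clone but not its genotype, which was taken from the study's own supplementary labelling of the same columns.

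The deposited values had lost their decimal points. Each was placed where the value became whole reads (0.827 to 0.829 normalized counts per read in WT, 1.19 in Setd5 +/-), with the deposited mean as a second condition. For mt-Nd1, mt-Nd2, mt-Co1, mt-Nd4, mt-Nd5 and mt-Cytb, placings 10 times larger also met both conditions but would make all 6 read counts multiples of 10. The smallest was taken, and the ratio of the genotypes does not depend on it. In the other 31 members the placing was unique. Placing was tested on simulated data.

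The test across genes used R 4.3.3 and limma 3.58.1 (linear fit, moderated with a trend) for means of 10 or more, on log2(normalized count + 1), with Benjamini-Hochberg adjustment. This differs from a count test, since the deposited columns hold normalized values. The whole reads restored from them were used for the intervals and not for a count test. Log2 ratios of means have exact 95% intervals (Clopper-Pearson) on reads divided by 1.95, the variance over the mean of reads within WT, and differences between ratios of 2 genes have normal ones. Genes with at most 3 reads in both libraries were given no ratio. Copies were searched with blastn 2.17.0 in GENCODE M21 transcripts, with matches of at least 50 bases. Per pair of genes only the match with the highest product of identity and cover was kept, so a shorter, closer match could be missed. mt-Rnr2, for which no copy was listed, shared 1.04% of its 50-base words with a nuclear transcript. All members with a mean of at least 10 are named, and of each other list the gene that fell and the gene that rose most among those called. Some genes that this rule names are not reported here. The members and lists were chosen with earlier results of these data known. Alternatives were another pseudocount, filter and scaling, a replicate block, a stricter call and each sample left out.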

Additional observations from a re-analysis of the deposited data

How the results depend on the processing

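Of 275 values of single mtDNA genes under the alternatives, 254 kept their direction and their side of the threshold. All 14 genes called with limma kept both in every setting run. Asking for an absolute log2 fold change of 0.5 left 7 genes called in place of 14, and all other settings called 14 to 16. mt-Nd2 was called lower with upper quartile scaling (−0.034, adjusted p = 0.0265), with nuclear total scaling (adjusted p = 0.000123), with the replicate block (adjusted p = 0.0375), without WT sample 1 (adjusted p = 0.0343) and without Setd5 +/- sample 2 (adjusted p = 0.0363). The summed protein log2 ratio was 0.11 with upper quartile scaling, 0.084 with nuclear total scaling and 0.11 without mt-Co1. The median protein log2 fold change was 0.038 with a minimum mean of 1, 0.028 with nuclear total scaling, 0.010 without members that have a near-identical copy, and −0.022 to 0.087 when each sample was left out. The WT share of reads on mtDNA was 3.79% over genes with a mean of at least 10. Members that were not called changed sign when samples were left out, with log2 fold changes of −0.24 to 0.18 for mt-Atp6, −0.25 to 0.18 for mt-Atp8 (−0.026 with nuclear total scaling), −0.23 to 0.37 for mt-Co2, −0.11 to 0.47 for mt-Co3, −0.075 to 0.18 for mt-Tl2 and −0.071 to 0.39 for mt-Tt. The cause was not tested. Among nuclear copies 1 was called without WT sample 3 and 2 without Setd5 +/- sample 2. The replicate numbers do not pair the samples (correlations of same-numbered samples 0.0049, 0.0015 and −0.0071), and with the replicate block 15 mtDNA genes and 9946 of all genes were called, against 14 and 9963. The planned count tests in edgeR and DESeq2 were not run, since the deposited columns hold normalized values, although whole reads were restored from them. Depth limits the 12 members with a mean under 10.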
